A study of Mus musculus with 3 samples.

Results

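The interleukin-12 family subunits are the genes Il12a, Il12b, Il23a, Il27 and Ebi3, taken by symbol from the deposited tables. All 5 were found among 55418 gene symbols, and all 5 had the mean level of 0.1 TPM needed for a test, as had 13327 genes in all. TPM is a share of all transcripts in a library, corrected for length, so it can be compared between genes. The RNA came from the cytosol of primary bone marrow-derived macrophages of C57BL/6J mice, was depleted of ribosomal RNA, and was sequenced after 90 min with 100 ng/ml lipid A, the membrane anchor of bacterial endotoxin and the ligand of the receptor TLR4. All 3 libraries belong to 1 group and are biological replicates 1, 2 and 3 of the same donor identifier, with no recorded age or sex. Since nothing in the labels says that the cells came from separate animals, p-values concern only these libraries. In the level and pair tests (limma) each gene's spread was also drawn toward that common to all genes. For genes that vary more than most, this lowers the standard error. Untreated cells were not analysed here, so levels were compared between genes within each library and induction was not measured. Replicates 1, 2 and 3 held 33821479, 47843161 and 59390843 expected counts in total.

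The family is built from pairs of chains. A helical chain (p35 from Il12a, p19 from Il23a or p28 from Il27) is joined to a chain that resembles a soluble cytokine receptor (p40 from Il12b, or EBI3). Interleukin-12 is p40 with p35, interleukin-23 is p40 with p19, interleukin-27 is EBI3 with p28, and interleukin-35 is EBI3 with p35. Macrophages and dendritic cells that sense microbes are main sources of interleukins 12, 23 and 27, which act on T and NK cells, and p40 can also be secreted without a partner. These data hold mRNA only, so neither the amounts of the chains nor their pairing was measured.

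In each dimer named above the gene of the receptor-like chain had more mRNA than that of the helical chain. These comparisons are not separate results, since Il12b and Ebi3 had the highest levels of the 5 genes in every library. Il12b and Ebi3 together made up most of the family's mRNA, with 50.1% ± 6.90 and 29.7% ± 3.73 of the summed TPM of the 5 genes (SD, n = 3). Il27 held 11.7% ± 3.16, Il23a 8.44% ± 4.71 and Il12a 0.0974% ± 0.0353. Each gene was also set against a reference, the median of 8747 protein-coding genes averaging 1 TPM or more, which was 7.38, 6.08 and 6.21 TPM in replicates 1, 2 and 3. A call needed a log2 difference of at least 1 and an adjusted p below 0.05 (limma, Benjamini-Hochberg over all rows of 1 fit). Of the members 2 lay above the reference, 1 below it and 2 had no call, while of all genes tested 20.5% lay above and 50.6% below (2726 and 6742 genes, or 1422 and 8812 where the reference genes had 5 TPM or more) and 71% either way. The median of the 5 members was 0.95 log2 units from the reference, and that of all genes tested was -1.06.

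**Figure D1:**
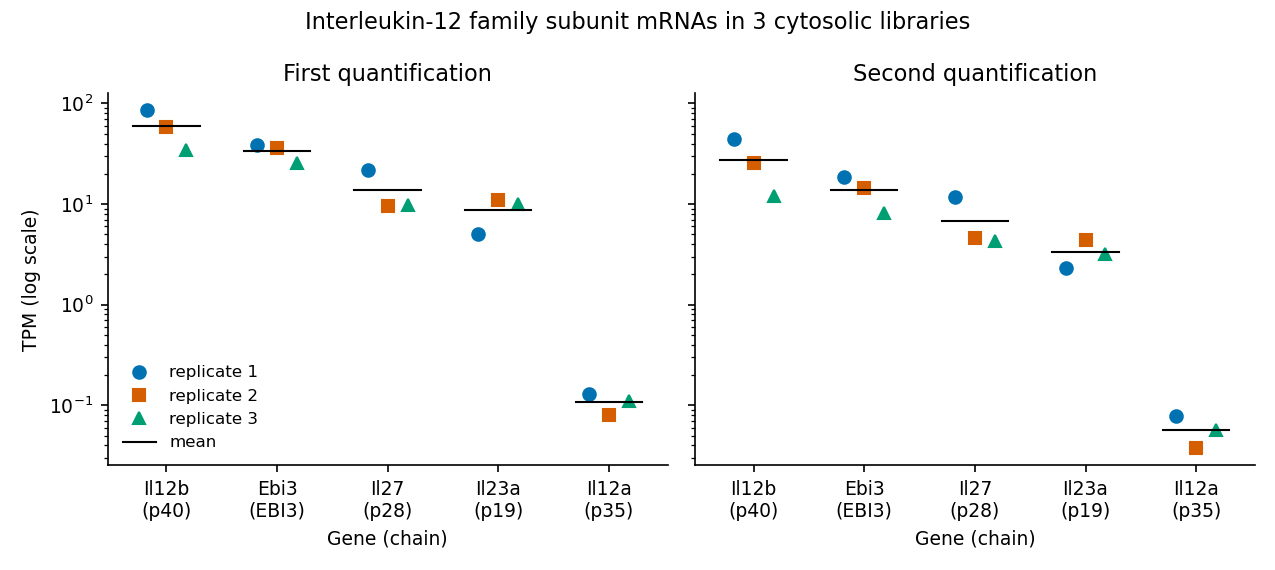
TPM on a log axis of the 5 subunit genes, with 1 point per library and a line at the mean, in the deposited quantification from transcriptome alignments (left) and in the one made straight from the reads (right). Il12b is highest in every library of both panels and Il12a, at 0.08 to 0.13 TPM on the left, lies below every point of the other genes.

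Il12b encodes p40 (ENSMUSG00000004296.14, chromosome 11, 44400063 to 44414033, mm10, plus strand). It gave 85.36, 58.92 and 34.48 TPM in replicates 1, 2 and 3, from 8261, 9179 and 6536 expected counts. The highest library was more than double the lowest, and all were far above the reference. The mean level was 59.6 ± 25.4 TPM (SD, n = 3), 3.07 ± 0.55 log2 units above the reference (limma adjusted p = 0.00063, Benjamini-Hochberg), at percentile 97.1 of protein-coding genes.

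Il12a encodes p35 (ENSMUSG00000027776.12, chromosome 3, 68690644 to 68698547, mm10, plus strand). It gave 0.13, 0.08 and 0.11 TPM, from only 8, 8 and 13 expected counts. All these counts exceed 3, the approximate one-sided 95% upper limit for a count of 0. The exact Poisson 95% intervals of these counts were 3.45 to 15.8 in replicates 1 and 2 and 6.92 to 22.2 in replicate 3, and like all intervals on counts here cover only counting error, since no molecular identifiers are mentioned in the labels. By the limit of 3 counts Il12a was taken as detected in every library, at a level where its own variation could not be resolved. It lay -5.01 ± 0.10 log2 units from the reference (SD, n = 3; limma adjusted p = 3.18e-05, Benjamini-Hochberg), a size that the pseudocount of 0.1 TPM limits (-2.77 with 1 TPM and -5.83 with 0.01).

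The partners of interleukin-12 were thus the most unequal pair of the family. The ratio of Il12b to Il12a, in counts per effective length, was 659 in replicate 1 (exact binomial 95% interval 334 to 1530), 735 in replicate 2 (373 to 1700) and 322 in replicate 3 (188 to 605). The intervals overlap, so counting error alone leaves the libraries' order unresolved. On the log2(TPM + 0.1) scale the difference was 8.09 ± 0.63 (SD, n = 3; limma adjusted p = 7.40e-05, Benjamini-Hochberg), in 3 of 3 libraries. It was 5.68 with a pseudocount of 1 TPM and 8.92 with 0.01, so the ratios are the better measure of size.

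The sequences upstream of both genes are shown because this pair differed most. They are the 250 bases before the transcript starts in RefSeq (GRCm38.p6, the assembly that mm10 names), which matched 3 of the 5 members (Il12a, Il12b and Ebi3). Capitals mark matches to TATANAA on the transcribed strand and, on both strands, to the NF-kB consensus, the interferon response element core (GAAA, any 2 bases, GAAA), the C/EBP core TTGCNNAA, the AP-1 site TGANTCA and the PU.1 core GAGGAA.
Il12b, chr11:44399813-44400062, plus strand: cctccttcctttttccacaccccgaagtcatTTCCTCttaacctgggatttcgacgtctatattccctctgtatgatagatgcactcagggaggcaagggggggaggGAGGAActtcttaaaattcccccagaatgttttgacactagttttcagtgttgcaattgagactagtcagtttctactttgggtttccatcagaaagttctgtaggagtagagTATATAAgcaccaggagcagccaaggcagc
Il12a start 1, chr3:68690394-68690643, plus strand: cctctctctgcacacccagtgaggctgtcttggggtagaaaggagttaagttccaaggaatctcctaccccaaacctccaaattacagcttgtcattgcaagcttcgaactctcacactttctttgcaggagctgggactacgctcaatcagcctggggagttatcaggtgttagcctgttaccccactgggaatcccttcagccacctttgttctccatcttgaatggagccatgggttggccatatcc
Il12a start 2, chr3:68691174-68691423, plus strand: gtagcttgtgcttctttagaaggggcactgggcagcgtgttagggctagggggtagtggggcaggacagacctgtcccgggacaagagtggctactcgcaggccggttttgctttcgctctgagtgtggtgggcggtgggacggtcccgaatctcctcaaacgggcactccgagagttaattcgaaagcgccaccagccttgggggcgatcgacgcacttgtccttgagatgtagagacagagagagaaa
The shares of 32851 such RefSeq windows that hold each motif were 6.58% for TATANAA, 3.90% for the NF-kB consensus, 2.98% for the interferon response element core, 9.56% for the C/EBP core, 6.75% for the AP-1 site and 23.3% for the PU.1 core. The Il12b window held a TATA box at positions -30 to -24 from the start and 2 PU.1 cores, at -219 to -214 and at -143 to -138. PU.1 is the transcription factor that specifies macrophages. Neither Il12a window held a match, which says only that these letters are not in these windows. They differed in base composition, with 2 CpG dinucleotides at start 1 and 15 at start 2, against 3 in the Il12b window. A match is only a match of letters, and no binding was measured.

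Most Il12a counts were assigned to the coding transcript of start 2. The coding transcript Il12a-202, whose first base is 68691424, held 6.42, 8 and 13 of the counts, while Il12a-201, which begins at 68690644, held 0 in all 3 libraries. Retained-intron transcripts, which begin further downstream, held the rest of the counts in replicate 1 (19.6%) and 0 in replicates 2 and 3. In the second quantification they held 13.8%, 0 and 45.4% of the TPM of Il12a, so the split was not stable at this depth. Il12b was almost all Il12b-201, with 99.72%, 99.88% and 99.91% of its TPM, and has no noncoding transcript in the annotation.

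Il23a encodes p19, the partner of p40 in interleukin-23 (ENSMUSG00000025383.2, chromosome 10, 128296139 to 128298752, mm10, minus strand). It gave 5, 10.9 and 10.12 TPM in replicates 1, 2 and 3, from 335, 1186 and 1340 expected counts. Replicate 1 was the lowest and lay below the reference, and both other libraries lay above it. The mean of 8.67 ± 3.21 TPM was 0.32 ± 0.76 log2 units from the reference (SD, n = 3; limma adjusted p = 0.399, Benjamini-Hochberg), with no call. Without replicate 1 it was 0.74, still under the size needed for a call (limma adjusted p = 0.00509, Benjamini-Hochberg). It was -0.21 in the second quantification and -0.70 where the reference genes had 5 TPM or more, so its direction was not settled.

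Il12b exceeded Il23a in 3 of 3 libraries, but by very different amounts. The ratio was 17.1 in replicate 1 (exact binomial 95% interval 15.3 to 19.1), 5.41 in replicate 2 (5.09 to 5.75) and 3.41 in replicate 3 (3.21 to 3.62). These intervals do not overlap, and replicate 1 combined the highest Il12b with the lowest Il23a. The mean log2 difference was 2.75 ± 1.19 (SD, n = 3; limma adjusted p = 0.00932, Benjamini-Hochberg). Without replicate 1 it was 2.09. Il23a in turn exceeded Il12a, the other partner of p40, by 38.6, 136 and 94.5 times, a mean log2 difference of 5.34 ± 0.77 (limma adjusted p = 0.000329, Benjamini-Hochberg). Set against both of its partners together, Il12b was 16.6, 5.37 and 3.37 times the summed TPM of Il12a and Il23a.

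Ebi3 encodes the receptor-like chain of interleukins 27 and 35 (ENSMUSG00000003206.7, chromosome 17, 55952640 to 55957022, mm10, plus strand). It gave 38.24, 36.50 and 25.85 TPM, from 2091, 3249 and 2801 expected counts. Replicate 3 was the lowest, and the spread was the smallest of the 4 members with more than 13 counts in every library. The mean of 33.5 ± 6.71 TPM was 2.32 ± 0.26 log2 units over the reference (SD, n = 3; limma adjusted p = 0.00021, Benjamini-Hochberg), or 1.29 where the reference genes had 5 TPM or more. The upstream window of Ebi3 is shown because it alone of the 4 windows held a full match to the NF-kB consensus. This is the motif of the factor that TLR4 activates, and it lay at positions -44 to -35 from the RefSeq start. Sites that depart from the letters of a motif were not searched for in any window. A PU.1 core at -176 to -171 is the other match.
Ebi3, chr17:55952373-55952622, plus strand: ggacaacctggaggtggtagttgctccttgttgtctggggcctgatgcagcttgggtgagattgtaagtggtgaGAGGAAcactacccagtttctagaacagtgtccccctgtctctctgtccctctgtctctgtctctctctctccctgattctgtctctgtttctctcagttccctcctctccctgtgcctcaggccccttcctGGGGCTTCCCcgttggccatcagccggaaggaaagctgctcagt

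Il27 encodes p28, the helical partner of EBI3 (ENSMUSG00000044701.5, chromosome 7, 126589010 to 126594941, mm10, minus strand). It gave 21.92, 9.62 and 9.79 TPM, from 1025, 736 and 911 expected counts. Replicate 1 was more than double the other libraries, which were nearly equal. The mean of 13.8 ± 7.05 TPM was 0.95 ± 0.52 log2 units over the reference (SD, n = 3; limma adjusted p = 0.0202, Benjamini-Hochberg), just under the size needed for a call. The call was made with FPKM and with counts per length scaled by TMM or DESeq2 size factors (1.18 each), without replicate 2 (1.12) and without replicate 3 (1.11), and not without replicate 1 (0.63) or in the second quantification (0.71). Where the reference genes had 5 TPM or more the value was -0.07 (limma adjusted p = 0.765, Benjamini-Hochberg), so the direction depended on the choice of reference.

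The partners of interleukin-27 were the closest in level among the dimers named above. Ebi3 exceeded Il27 by 1.74 times in replicate 1 (exact binomial 95% interval 1.62 to 1.88), 3.79 in replicate 2 (3.5 to 4.11) and 2.64 in replicate 3 (2.45 to 2.85). Ebi3 was thus the higher in 3 of 3 libraries, with the smallest excess in replicate 1, where Il27 was highest. The mean log2 difference was 1.37 ± 0.56 (SD, n = 3; limma adjusted p = 0.00857, Benjamini-Hochberg). For interleukin-35 the ratio of Ebi3 to Il12a was 295, 455 and 241, a mean log2 difference of 7.33 ± 0.36 (limma adjusted p = 3.78e-05, Benjamini-Hochberg). With a pseudocount of 1 TPM that difference was 4.94. Ebi3 was 1.73, 3.76 and 2.61 times the summed TPM of Il27 and Il12a.

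In order of mean level the genes were Il12b, Ebi3, Il27, Il23a and Il12a, and 9 of the 10 pairs differed (limma, Benjamini-Hochberg threshold 0.05). The variance that limma shares between genes lowered the standard error of widely varying pairs, such as Il12b against Il23a (SD 1.19, standard error 0.52). Whether such pairs pass on their own spread alone was not tested. With 3 libraries the smallest two-sided p of an exact sign-flip test is 0.25, which it gave for those 9 pairs. Il12b lay above Ebi3 by 2.23, 1.61 and 1.33 times, a log2 difference of 0.75 ± 0.38 (SD, n = 3; limma adjusted p = 0.0183, Benjamini-Hochberg). That call was lost without replicate 2 (limma adjusted p = 0.0756, Benjamini-Hochberg). Il12b exceeded Il27, which is not its partner in the dimers named above, by 2.12 ± 0.42 log2 units (limma adjusted p = 0.00101, Benjamini-Hochberg). Ebi3 exceeded Il23a by 7.65, 3.35 and 2.55 times (log2 difference 2.00 ± 0.82; limma adjusted p = 0.00807, Benjamini-Hochberg). Il27 exceeded Il12a by 169, 120 and 91.4 times (5.96 ± 0.54; limma adjusted p = 0.000106, Benjamini-Hochberg). Il27 and Il23a were the neighbours that did not differ beyond their spread, at 0.63 log2 units with a 95% interval of -0.99 to 2.25 (limma adjusted p = 0.339, Benjamini-Hochberg). Il27 was 4.39 times Il23a in replicate 1, and 0.883 and 0.967 times in replicates 2 and 3. The order of p28 and p19 mRNA therefore turned on replicate 1, without which the difference was -0.11.

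**Figure D2:**
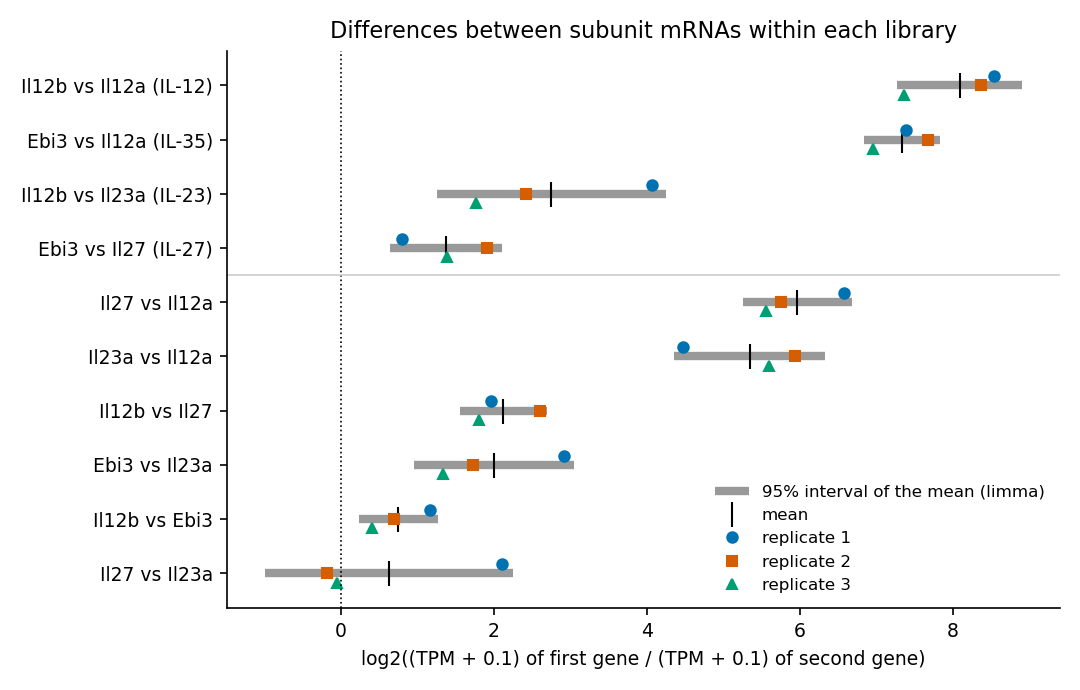
Log2 differences of TPM + 0.1 between subunit genes, with 1 point per library, the mean as a tick and its limma 95% interval as a grey bar. The 4 pairs above the line are the dimers named in the text. The intervals of 9 pairs lie above 0, and that of Il27 against Il23a runs from -0.99 to 2.25.

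The subunit genes differed in which library was highest. On log2 CPM (counts scaled to library size, with TMM factors) Il12b stood at 7.87, 7.62 and 6.82 in replicates 1, 2 and 3, Il27 at 4.86, 3.98 and 3.98, and Il23a at 3.25, 4.67 and 4.54. Replicate 1 was thus the highest library for p40 and p28 and the lowest for p19, the last by over 1 log2 unit. These 3 varied more than the trend for genes of their abundance (edgeR goodness of fit, Benjamini-Hochberg adjusted p = 0.000693, 0.00722 and 5.93e-06). Ebi3, at 5.89, 6.12 and 5.60, did not pass (adjusted p = 0.844), and Il12a had too few counts for the test. Of all 12330 genes tested 2.28% passed, which is 281 genes, against 162, 180 and 96 without replicates 1, 2 and 3. The SDs were 0.55 for Il12b, 0.51 for Il27, 0.78 for Il23a and 0.26 for Ebi3, against a median of 0.12 over all genes, and 2.52% of genes varied as much as Il23a. The call of Il23a was lost without replicate 1 (SD 0.10), that of Il27 without replicate 1 (SD 0.00) or 2 (SD 0.62) and that of Il12b without replicate 3 (SD 0.18). Replicate 1 was also the shallowest library, and the part of depth in these differences was not tested.

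**Figure D3:**
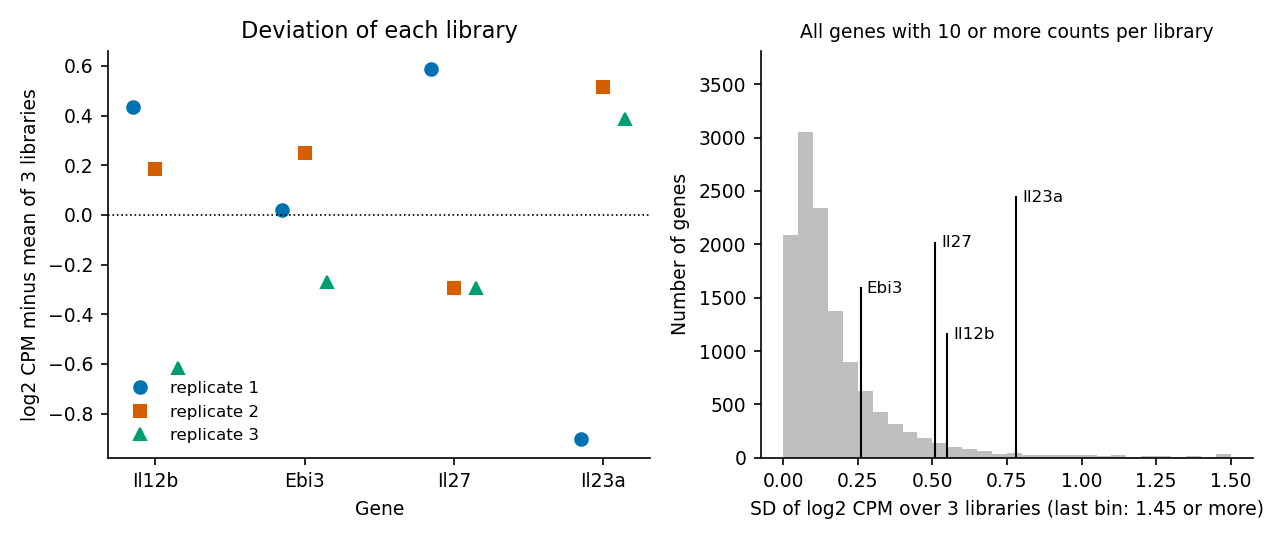
Left, deviation of each library from the mean log2 CPM of 4 subunit genes. Right, histogram of the SD of log2 CPM over 3 libraries for the 12330 genes whose counts reached 10 in each library, with lines at Ebi3 (0.26), Il27 (0.51), Il12b (0.55) and Il23a (0.78).

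Relative to the reference, Il23a in replicate 1 differed by -1.32 log2 units from the mean of the other libraries, a shift that 3.86% of tested genes matched or exceeded in size. Il27 lay 0.91 higher (7.17% of genes) and Il12b 0.66 higher (11.1%), while Ebi3 lay 0.05 higher (81.2%). Among the 13 activator and 7 repressor genes the largest such shifts were those of the repressors Atf3 (0.85), Il10 (-0.81) and Nfil3 (0.76). Shifts of these sizes were matched or exceeded by 7.79%, 8.4% and 9.29% of tested genes. These values are shown side by side, and no link between them was tested.

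The second deposited quantification gave lower TPM for every member but the same order of means. Lower TPM was not particular to the members, since most other listed genes were lower there too, except some near 0 TPM. Il12b averaged 27.3 ± 16.1 TPM, Ebi3 13.7 ± 5.17, Il27 6.85 ± 4.17, Il23a 3.30 ± 1.03 and Il12a 0.0571 ± 0.0202 (SD, n = 3). The ratios within dimers were a little higher than those above for Il12b over Il23a (19, 5.86 and 3.76). They were lower for Ebi3 over Il27 (1.58, 3.15 and 1.92, against 1.74, 3.79 and 2.64 in the first quantification). Also lower were Il12b over Il12a, at 569, 688 and 213, and Ebi3 over Il12a, at 237, 392 and 145. Il27 exceeded Il23a in all 3 libraries there (5.02, 1.06 and 1.33 times). Il23a was mostly its coding transcript in both. Its retained-intron transcript, Il23a-202, held 0.6%, 1.01% and 0.988% of its TPM in the first and 1.93%, 3.38% and 6.28% in the second.

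Overlapping genes touch 2 members. Il27 shares 103 exon bases with Apobr on the other strand, 10.1% of its transcript, and Ebi3 shares 270 with the antisense gene Gm16712, 23.4%. Apobr, which encodes a lipoprotein receptor, stood at 20.78, 21.04 and 22.85 TPM, and its part in the values of Il27 was not tested. Gm16712 stood at 1.09, 1.48 and 2.12 TPM. The sources used here do not say whether reads were counted by strand, so the values of Il27 and Ebi3 are uncertain to that extent. In a search for copies with at least 90% identity the only other match was one of 56 bases between Il12b and Gm23967.

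Of the 5 receptor genes 3 stayed below 1 TPM in every library. Il6st, which encodes gp130, the signalling chain shared by interleukin-27 and the interleukin-6 family, gave 17.62, 17.06 and 18.32 TPM and exceeded the reference by 1.42 ± 0.16 log2 units (SD over 3 libraries; limma adjusted p = 0.000277, Benjamini-Hochberg). Il27ra, its partner chain for interleukin-27, gave 0.06, 0.04 and 0.06 TPM from 9, 9 and 16 counts, too low for the test. Il12rb1, the chain that binds p40 in the receptors of interleukins 12 and 23, gave 0.52, 0.45 and 0.37 TPM and lay -3.61 ± 0.13 from the reference (limma adjusted p = 3.43e-05, Benjamini-Hochberg). Il12rb2, the signalling chain of the interleukin-12 receptor, was the higher of that pair, with 7.45, 5.42 and 4.67 TPM and no call at -0.18 ± 0.21 (limma adjusted p = 0.165, Benjamini-Hochberg). No library of Il12rb1 reached any of Il12rb2. Il23r, the specific chain for p19, was at 0, 0.01 and 0.03 TPM, from 0, 2 and 8 counts. Among the 3 receptor genes tested 1 lay above and 1 below the reference, against 20.5% and 50.6% of all genes tested. Of the receptor genes 0 lay above and 2 below where the reference genes had 5 TPM or more.

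Among the 6 signal transducers 4 lay above the reference and 1 below it, against 20.5% and 50.6% of all genes tested. The kinase gene Jak1 averaged 38.3 ± 3.93 TPM and the kinase gene Jak2 31.4 ± 3.87 (SD, n = 3). Tyk2, the kinase that binds the chain encoded by Il12rb1, averaged 8.21 ± 0.988 TPM without a call. Stat4, the main transcription factor downstream of the interleukin-12 receptor in T cells, lay below at 0.850 ± 0.235 TPM (-2.84 log2 units; limma adjusted p = 0.000268, Benjamini-Hochberg).

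Chains outside the family have also been reported to pair with its members. Cd5l, a secreted macrophage protein reported to bind p40, gave 158.48, 161.94 and 201.05 TPM, above Il12b in every library. It lay 4.70 ± 0.29 log2 units above the reference (limma adjusted p = 5.15e-05, Benjamini-Hochberg). Of 9 related helical cytokines of the interleukin-6 type, 6 were tested. Of these 0 lay above the reference and 2 below, against 20.5% and 50.6% of all genes tested. With FPKM, with TMM or DESeq2 scaling, or without replicate 1, 1 lay above. Osm was highest at 9.25, 9.77 and 18.33 TPM, followed by Il6 at 9.43, 5.40 and 4.84 and Clcf1 at 4.12, 4.31 and 6.30, and Il6, like Il12b and Il27, was highest in replicate 1. Il11 averaged 0.00333 TPM and Il31 was listed at 0.

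Most listed regulators of the subunit genes lay above the reference, while of all genes tested 20.5% lay above it and 50.6% below. These lists too were chosen with earlier results of these data known. Of 13 activator genes 12 lay above the reference, with Irf3 as the other at 10.5 ± 1.88 TPM (0.67 log2 units). Nfkbiz, which encodes a nuclear cofactor of NF-kB needed for Il12b, averaged 204 ± 47.1 TPM, Irf1, an interferon regulatory factor that acts on Il12a and Il27, 147 ± 37.7, and Spi1, which encodes PU.1, 75.1 ± 12.2 (SD, n = 3). Jun, a subunit of AP-1, was called at 17.4 ± 5.31 TPM. Of 7 repressor genes 5 lay above the reference and 0 below. Atf3, a repressor of inflammatory genes, gave 313.37, 161.33 and 129.63 TPM. Il10, whose product restrains p40 expression, gave 47.93, 65.38 and 75.14, and Maf, a repressor of interleukin-12 genes, averaged 49.9 ± 8.97 TPM. Nfil3, a repressor of Il12b, at 12.4 ± 5.90 TPM, and Bcl6, another repressor, at 10.9 ± 1.63, had no call. The median of the activators was 2.62 log2 units above the reference and that of the repressors 2.49, against -1.06 over all genes tested.

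**Figure D4:**
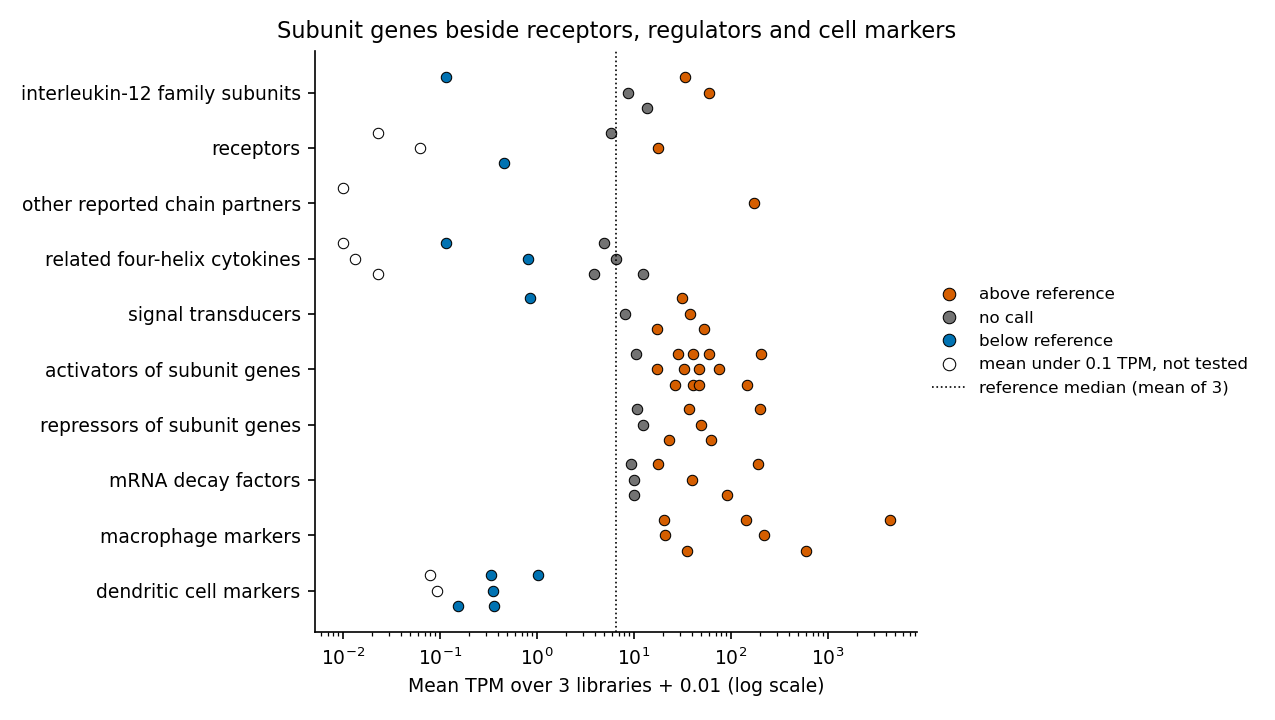
Mean TPM + 0.01 on a log axis for each gene of the lists, coloured by its call against the reference median (dotted line). Subunit genes span from 0.107 to 59.6 TPM, 12 of 13 activators lie above the reference, and dendritic cell markers reach at most 1.02 TPM.

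AU-rich sequences in the 3′ untranslated regions mark short-lived cytokine mRNAs and bind decay factors such as tristetraprolin, the product of Zfp36. In the GENCODE M21 transcripts the pentamer ATTTA, counted with overlaps on the transcript strand, occurred 6 times each in Il12a, Il12b and Il23a, 5 times in Il27 and 1 time in Ebi3. Of 3′ untranslated regions within 20% of the same length, 0.763%, 2.37%, 1.49% and 0.309% held as many for Il12a, Il12b, Il23a and Il27, and 30.2% for Ebi3. The longer TATTTAT, which overlaps ATTTA, occurred 5, 1, 5 and 4 times in those 4 genes and 0 times in Ebi3, while 12.6%, 19.7%, 17.2% and 7.29% of regions of their lengths held at least 1. For the length of Ebi3 that share was 6.96%, so most regions as short as its own lack the motif too. A short stretch per gene is shown, in mm10, because these 4 genes share TATTTAT and Ebi3 lacks it. Capitals mark each TATTTAT that lies whole within the stretch (2 overlap in Il12a and in Il27). In Il12a a further overlapping match runs past the end of the stretch and is not marked.
Il12a, chr3:68698429-68698452, plus strand: catgagccTATTTATATTTATtta
Il12b, chr11:44413481-44413504, plus strand: aatttatgTATTTATtaatttatt
Il23a, chr10:128296186-128296209, minus strand: atgatggtTATTTATtcTATTTAT
Il27, chr7:126589080-126589103, minus strand: tggaTATTTATTTATttttaagaa
The letters are a description, and mRNA half-life was not measured.

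Genes for mRNA decay and stability factors were also present. Of 7 listed, 4 lay above the reference and 0 below. Zfp36 gave 228.81, 163.72 and 174.47 TPM, and its relative Zfp36l1 averaged 91.1 ± 11.7 (SD, n = 3). Zc3h12a, which encodes the endonuclease Regnase-1, known to cut Il12b mRNA, averaged 39.8 ± 6.67 TPM. Zfp36l2 and Rc3h1, which encodes Roquin-1, had no call at 9.95 ± 0.815 and 9.42 ± 1.16 TPM. Over all 49 pathway genes 43 were tested, of which 27 lay above and 4 below. Of all genes tested 20.5% lay above and 50.6% below.

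The label of macrophages was set beside lists of markers, which were chosen with earlier results of these data known. All 7 macrophage markers lay above the reference, while of all genes tested 20.5% lay above it and 50.6% below. Lyz2, which encodes lysozyme, was the highest of these markers at 5507.13, 3860.32 and 3672.79 TPM. Dendritic cells are another source of these cytokines, and of their 7 markers 5 were tested and all 5 lay below the reference. The highest was Ccr7 at 1.07, 1.01 and 0.97 TPM, and the markers summed to 2.28, 2.14 and 2.59 TPM. B cell and T and NK cell markers summed to at most 0.14 and 0.04 TPM, with Cd79a highest in the former list at a mean of 0.0233 and Ncr1 in the latter at 0.01. Neutrophil markers summed to 40.84, 23.56 and 39.91 TPM, led by S100a9 at 19.3 ± 5.51, with 1 of 5 tested above the reference, 3 below and Ly6g at 0 in 3 of 3 libraries. The part of any of these cell types in the levels of the subunit genes was not tested. In bulk RNA, more cells of a type and more RNA per cell cannot be told apart.

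For each member above 1 TPM, the 3 protein-coding genes with the most similar level in every library were found by the root mean square difference of log2(TPM + 0.1) over the 3 libraries. For Il12b these were Arl5c, Rpl27 and Tiparp (0.20, 0.23 and 0.23), and for Ebi3 Birc3, Msmo1 and Hmgcs1 (0.11, 0.12 and 0.14). For Il27 they were Clec5a, BC028528 and Pmaip1 (0.17, 0.20 and 0.21). Il23a had none as close, with Comtd1, Mesd and Cltb at 0.35, 0.36 and 0.41.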

How the data were processed

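Reads had been aligned to mm10 with GENCODE M21, as text deposited with each library says, and the authors deposited gene and transcript values from transcriptome alignments (the first quantification, used throughout) and transcript values straight from the FASTQ files (the second). The columns of the first are expected counts, TPM and FPKM, and those of the second estimated counts and TPM, per the file headers. The sources used here name no tool. Each library's gene values had 81881 entries, of which 55536 were annotated genes, all matched to GENCODE M21, and values of shared symbols were summed to 55418. Members and lists were chosen with earlier results of these data known. Levels and the 10 member pairs were tested in 1 fit on log2(TPM + 0.1) of genes averaging 0.1 TPM or more (limma 3.58.1, one-sample moderated test, R 4.3.3, Benjamini-Hochberg over 13337 rows). Pair differences were divided by the square root of 2 for the fit, so that the variance prior of single genes applies, and printed undivided. Library variation was tested on expected counts, rounded, where all libraries had 10 or more (edgeR 4.0.16, TMM, goodness of fit to the trended dispersion). Size factors of DESeq2 1.42.0 were tried too. Ratios within a library are rounded expected counts per effective length, with exact binomial 95% intervals, which cover counting error only. Copies were searched with BLAST 2.17.0. Named genes were the members, receptors and reported partners, the 3 highest and 2 lowest of each other pathway list, the highest of each marker list, and the genes of most similar level; the overlapping or similar genes and Ly6g were named after their values were seen. Values of some genes that this rule takes are not reported here. The fits were also run on simulated data in which all genes had a common underlying spread. Those data do not cover genes as variable as Il23a or as low as Il12a. The alternatives tried were pseudocounts, filters, units, scalings, the second quantification, another reference and leaving out each library. With 1 group there were no contrasts between samples.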

Additional observations from a re-analysis of the deposited data

How the results depend on the processing

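No paired analysis was possible because the replicate numbers label a single group. Against the 5 TPM reference Il12b stood at 2.05, Ebi3 at 1.29, Il27 at -0.07 and Il23a at -0.70, and Il23a at -0.21 in the second quantification. Il27 reached the size for a call with FPKM, TMM-scaled and DESeq2-scaled counts per length (1.18 log2 units each). Leaving out each library gave 0.63 to 1.12 for Il27, 0.09 to 0.74 for Il23a, 2.83 to 3.39 for Il12b, 2.22 to 2.47 for Ebi3 and, without replicates 2 or 3, -5.05 to -4.95 for Il12a. It gave 0.55 to 0.92 for Il12b against Ebi3 (0.79 without replicate 2, no longer past the threshold) and -0.11 to 1.03 for Il27 against Il23a. Library variation, as the SD of log2 CPM, ranged over 0.18 to 0.74 for Il12b, 0.10 to 1.00 for Il23a, 0.00 to 0.62 for Il27 and 0.16 to 0.37 for Ebi3, and calls were lost at 0.18 for Il12b, 0.10 for Il23a and 0.00 and 0.62 for Il27. The other pairs and levels stayed on their side of the threshold in every alternative that could be computed. Il12a and its pairs fell under the 0.1 TPM filter in the second quantification and without replicate 1, so they have no value there; with a pseudocount of 1 TPM Il23a and Il27 exceeded Il12a by 3.07 and 3.64. Receptors above the reference went from 1 to 0 against a reference of at least 5 TPM. Receptors below it went from 1 to 3 with no filter, 2 with FPKM and 2 against the 5 TPM reference. Related cytokines above it went from 0 to 1 with FPKM, TMM or DESeq2 scaling; leaving out a library gave 0 to 1. Those below it went from 2 to 4 with no filter, 1 in the second quantification and 5 against the 5 TPM reference. All pathway genes below it went from 4 to 8 with no filter and to 8 against the 5 TPM reference. The retained-intron share of Il23a, 0.866% of TPM on average, was 3.86% in the second quantification and 1.1% of expected counts. With no filter, 21066 genes were tested and 14489 lay below the reference, against 6742 of 13327; against the 5 TPM reference 1422 lay above, against 2726. The goodness-of-fit calls fell from 281 to 162, 180 and 96 without replicates 1, 2 and 3, where fewer libraries enter the fit. The median of all genes tested, -1.06, was -1.24 with FPKM, -1.22 with TMM, -1.42 in the second quantification, -2.09 against the 5 TPM reference and -3.63 with no filter. Other causes were not tested. The counts of Il12a limit the precision of every ratio that holds it.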
